A study of Mus musculus with 7 samples.

Results

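Of 17352 autosomal protein-coding genes of the mouse that entered the count, 4862 had no peak within 1 kb of any of their transcript starts in any of 7 bulk ATAC-seq libraries of HPC7. These genes, 28.0% of those counted, are called closed here, and this word says only that no peak was listed there. Another 11380 genes had such a peak in all 7 libraries, which was 65.6%, and are called open. The remaining 1110 genes had one in 1 to 6 libraries. The transcript starts were those of GENCODE M21 on mm10, and symbols that begin with Olfr, Vmn, Gm, Krt or Cyp or end in Rik were left out beforehand. That step removed 3455 of 20807 genes, of which 2736 had no peak either. Since the members were chosen by the peaks at their starts, the counts at the starts below are a description, and no test was made on them.

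HPC7 cells are an established line of blood progenitors of the mouse, kept in medium with stem cell factor. All 7 libraries, replicates 1, 2 and 4 to 8, carry the same label, cell line and cell type, with no treatment or genotype named, and the study describes them as separate culture batches of this 1 line. In ATAC-seq a transposase, Tn5, cuts and tags the DNA it can reach, and reads pile up in open chromatin regions (OCRs). The lists held 84593 to 132852 peaks, and the number of reads behind them was not used here, so that a weak opening can lie under the limit of a list. The peak names inside the files begin with VD in replicates 1, 2 and 4 and with EtOH in replicates 5 to 8, which the labels do not explain. Replicate 1 stands apart from the others, with the most peaks and the lowest listed fold enrichment, 1.68 against 2.13 to 2.44 in the other 6.

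A promoter is the DNA around a transcript start where RNA polymerase and its partner factors assemble. In most cell types the promoters of widely used genes are free of nucleosomes, and many of them lie in CpG islands, stretches in which the CG dinucleotide has not been lost. Promoters of genes that serve 1 tissue are more often poor in CG, some carry a TATA box, and in other tissues they are usually packed in nucleosomes or covered by Polycomb proteins. Large tandem families of such genes for skin, saliva, scent or defence peptides lie side by side on the chromosome.

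The sequences show promoters of closed genes beside promoters of open genes, of which the start printed for Gata2 itself had no peak within 1 kb. From the lists of other tissues, the first closed gene of each list was taken in list order, where RefSeq has a promoter entry for it, up to 6 genes, and from the stem and progenitor list the first 4 open genes. Each run is the 150 bases that end just before the start of the RefSeq entry (GRCm38.p6), written 5′ to 3′ on the strand of the gene, with CG and TATAAA, or TTTATA for the other strand, in capitals. Alb, the albumin of liver, is at chr5:90460720-90460869 on the plus strand. Acta1, the actin of skeletal muscle, is at chr8:123894776-123894925 on the minus strand. Syt1, the calcium sensor of synaptic vesicles, is at chr10:109010976-109011125 on the minus strand. Ins1, an insulin gene, is at chr19:52264147-52264296 on the plus strand. Ddx4, an RNA helicase of germ cells, is at chr13:112652311-112652460 on the minus strand, and Umod, the uromodulin of kidney, is at chr7:119479263-119479412 on the minus strand.
Alb: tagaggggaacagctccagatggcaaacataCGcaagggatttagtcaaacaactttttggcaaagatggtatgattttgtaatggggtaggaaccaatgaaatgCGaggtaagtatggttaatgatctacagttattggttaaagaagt
Acta1: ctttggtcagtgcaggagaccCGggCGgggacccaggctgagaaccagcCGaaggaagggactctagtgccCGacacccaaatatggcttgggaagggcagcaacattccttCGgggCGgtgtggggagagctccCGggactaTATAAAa
Syt1: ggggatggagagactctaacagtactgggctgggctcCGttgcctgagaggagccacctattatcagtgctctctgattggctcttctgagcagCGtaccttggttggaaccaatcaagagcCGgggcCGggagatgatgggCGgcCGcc
Ins1: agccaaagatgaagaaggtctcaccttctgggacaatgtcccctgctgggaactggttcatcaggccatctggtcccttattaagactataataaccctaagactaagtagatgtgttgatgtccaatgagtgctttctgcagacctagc
Ddx4: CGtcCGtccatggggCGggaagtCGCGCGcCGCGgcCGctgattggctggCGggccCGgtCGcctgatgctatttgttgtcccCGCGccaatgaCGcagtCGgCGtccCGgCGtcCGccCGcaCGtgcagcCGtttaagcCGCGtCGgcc
Umod: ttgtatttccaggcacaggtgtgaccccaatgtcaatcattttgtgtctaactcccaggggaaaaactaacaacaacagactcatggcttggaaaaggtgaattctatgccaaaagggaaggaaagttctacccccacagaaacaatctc

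The open genes are Kit, the receptor of stem cell factor, at chr5:75574837-75574986 on the plus strand, and Cd34, a surface marker of progenitors, at chr1:194938671-194938820 on the plus strand. Gata2, a transcription factor of stem and progenitor cells, is at chr6:88193741-88193890 on the plus strand, and Runx1, another one, is at chr16:92826075-92826224 on the minus strand.
Kit: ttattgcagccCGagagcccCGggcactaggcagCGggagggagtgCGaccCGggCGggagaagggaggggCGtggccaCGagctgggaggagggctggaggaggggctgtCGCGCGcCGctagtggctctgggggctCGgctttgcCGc
Cd34: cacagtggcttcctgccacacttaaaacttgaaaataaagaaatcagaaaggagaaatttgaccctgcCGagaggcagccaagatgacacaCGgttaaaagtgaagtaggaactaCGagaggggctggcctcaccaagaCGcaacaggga
Gata2: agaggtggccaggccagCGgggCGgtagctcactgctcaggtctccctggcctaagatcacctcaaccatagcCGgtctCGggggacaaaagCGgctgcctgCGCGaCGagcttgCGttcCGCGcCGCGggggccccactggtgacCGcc
Runx1: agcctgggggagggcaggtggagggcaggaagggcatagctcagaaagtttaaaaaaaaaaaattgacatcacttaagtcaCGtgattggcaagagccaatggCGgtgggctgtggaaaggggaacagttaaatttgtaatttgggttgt

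CG occurred 0 times in the windows of Ins1 and Umod, 2 times in that of Alb, 6 times in Syt1, 7 times in Acta1 and 26 times in Ddx4. It occurred 14 times in Kit, 14 times in Gata2, 4 times in Cd34 and 2 times in Runx1, so that the printed open and closed promoters overlap in this count. TATAAA or its reverse was found in 1 of the 10 windows, that of Acta1. The starts of Kit, Cd34 and Runx1 shown here lay under a peak in every library, whereas the start shown for Gata2 was 1782 to 2980 bp from the nearest peak, and the peaks that made Gata2 open lay at its other starts. Over all genes with a RefSeq entry, the 150 bases held a median of 3 CG in 3603 closed genes and 11 in 9047 open genes. No CG was present in 15.8% of the windows of closed genes and 2.04% of those of open genes. TATAAA on either strand was present in 11.4% of the windows of closed genes, 3.07% of those of open genes and 5.60% of all 13464 windows. The window of an open gene need not lie at a start that had a peak, as Gata2 shows.

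Genes were grouped by symbol into 75 families, some of them tandem clusters and others, such as Slc, Zfp and Kcn, spread over many chromosomes. Of the 75 families, 11 were closed in every eligible member, and 32 were closed in at least 80%, against 28.0% of all genes counted. Families grouped under skin, which here take in the 27 Klk genes, were closed in 73 of 74 genes. Those of reproduction and scent were closed in 163 of 176, those of secreted defence proteins in 119 of 134, and those of the senses in 74 of 87. The families together held 1177 closed genes, 24.2% of the set, so that most closed genes belong to none of them.

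Among the skin families, all 21 Lce genes and all 15 Sprr genes, both of which code for proteins of the cornified envelope of keratinocytes, were closed. All 11 Skint genes, which code for membrane proteins of skin and thymus epithelium, were closed too. Of 27 genes grouped under Klk, a symbol of secreted serine proteases, only Klk8 was not closed, and it was open in all 7 libraries. These genes lay on 2 chromosomes. The grouping by symbol also takes in Klk1 and the Klk1b genes, and may hold many genes that are not of skin. Among the defence families, all 22 Defa genes, the alpha-defensins of Paneth cells, and all 7 Reg genes were closed. Of 42 Defb genes, the beta-defensins of epithelia, 38 were closed. Defb30 was open in all 7 libraries, Defb42 had a peak in 4, and Defb3 and Defb36 had one in 1 library each. Of 18 type I interferon genes 15 were closed. Ifnb1, the interferon beta gene, had a peak in all 7 libraries at 543 bp, Ifnz had one in 4 and Ifna13 in 1.

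Among the reproduction and scent families, the 22 Mup genes (major urinary proteins), the 15 Esp genes (exocrine gland peptides), the 10 Speer, the 7 Obox and the 5 casein genes were closed without exception. Of the 34 Scgb genes, secretoglobins of glands and airways, Scgb1c1 was open in all 7 libraries and Scgb3a1 had a peak in 5. Of 25 genes of the prolactin family 23 were closed, and of 13 Psg genes, the pregnancy-specific glycoproteins of the placenta, 12. Taste receptors were closed in 34 of 38 genes, with Tas1r1 open in all 7 libraries. Trace amine receptors were closed in 14 of 15 genes, and Taar4 had a peak in 1 library.

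Families of metabolism, which here take in the Serpina and Serpinb genes, were closed in 131 of 175 genes (74.9%). Those grouped under excitable cells, which here take in the Dnah genes (7 of 15 closed), were closed in 121 of 209 (57.9%). The range between families was wide. The 19 Ces genes, carboxylesterases of liver and plasma, were all closed, as were 22 of 23 Serpina genes, 19 of 22 Ugt genes and 18 of 21 Sult genes, the last 2 being conjugating enzymes of liver. Of 23 Gst genes, glutathione transferases, 9 were closed. The exceptions among Ugt were Ugt1a6a, Ugt1a6b and Ugt1a7c, open in all 7 libraries. Potassium channel genes (Kcn) were closed in 53 of 92, GABA receptor genes (Gabr) in 14 of 16, and the solute carriers (Slc) in 135 of 372. Collagen genes were closed in 26 of 43 and protocadherin genes in 43 of 67.

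At the other end, no gene of the 78 Mrpl and Mrps genes (mitochondrial ribosome) or of the 44 Nduf genes (respiratory complex I) was closed. Of 49 Psm genes of the proteasome, the 3 closed ones were Psma8, a subunit of testis, Psmb11, the subunit of thymus cortex, and Psme2b. Of 87 Rpl and Rps genes 8 were closed, among them Rpl10l, Rpl39l and Rpl10-ps3, whose symbols mark them as copies of another ribosomal gene. The 5 closed histone genes of 67 lay on chromosome 13, between 1036 and 1597 bp from the nearest peak. In Hist1h2bq, Hist1h2ao and Hist1h2br none of the 50-base words around the 5′ end occurs once in the genome. Zinc finger genes of the Zfp series were closed in 70 of 385, a share of 18.2%, below the 28.0% of all genes.

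**Figure D1:**
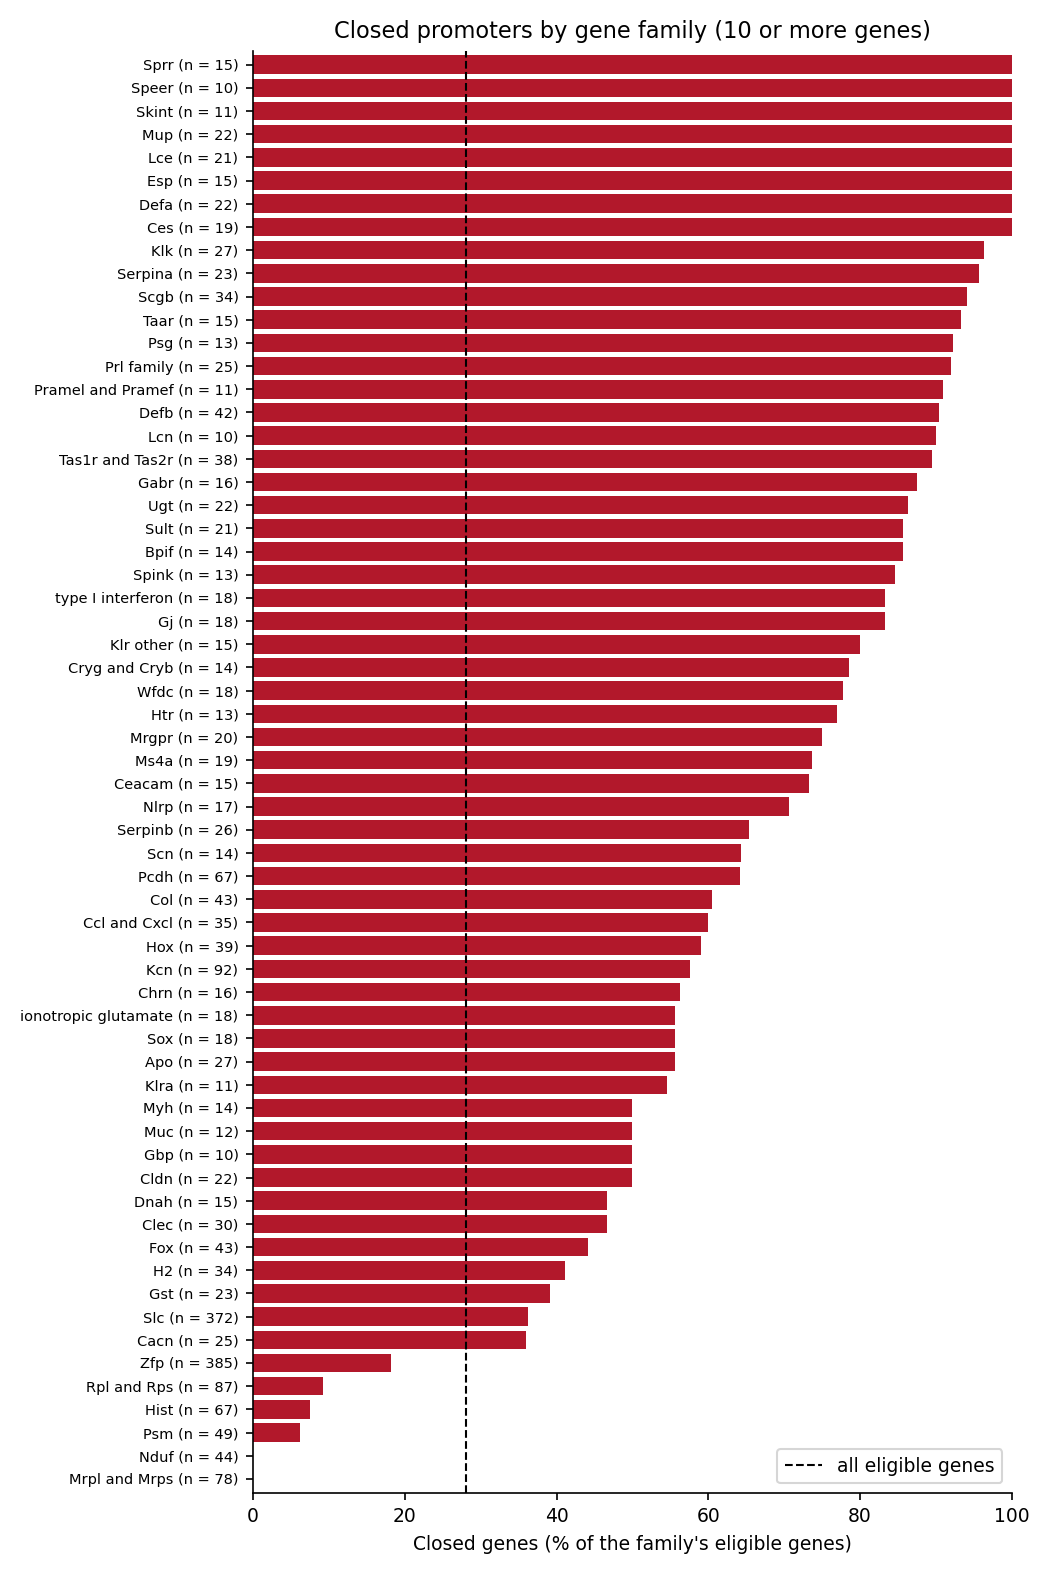
Horizontal bars give the percentage of eligible genes that were closed in each family with at least 10 genes, with the number of genes in brackets, and the dashed line marks the 28.0% of all eligible genes. The Defa, Mup, Lce and Sprr bars reach 100%, and the Mrpl, Mrps and Nduf genes are at 0.

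Immune families, which here take in receptors, chemokines and GTPases, lay between these ends, with 96 of 187 genes closed (51.3%). Of 35 Ccl and Cxcl genes, the chemokines, 21 were closed. Of 9 Toll-like receptor genes (Tlr), sensors of microbial molecules, only Tlr11 was closed, at 5038 bp. Of 10 Gbp genes, interferon-induced GTPases, 5 were closed, and Gbp2, Gbp3, Gbp5, Gbp7 and Gbp9 were open in all 7 libraries. Of 11 Klra genes, receptors of NK cells, 6 were closed. Of 34 genes of the H2 complex 14 were closed.

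The Hox genes, homeobox factors that set position along the body axis, were split within each cluster. In the Hoxa cluster 6 of 11 genes were closed, among them Hoxa9 at 3674 bp and Hoxa10 at 5560 bp from the nearest peak, and Hoxa3, Hoxa4, Hoxa5 and Hoxa7 were open in all 7 libraries. In the Hoxb cluster 5 of 10 were closed, and Hoxb4, Hoxb5, Hoxb6 and Hoxb7 were open. In the Hoxc cluster 5 of 9 were closed and only Hoxc6 was open in all 7 libraries. In the Hoxd cluster 7 of 9 were closed, with Hoxd4 and Hoxd8 open.

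Lists of genes that are known for 1 tissue were counted in the same way. Of 158 such genes of 11 tissues outside the blood, 99 were closed (62.7%, against 28.0% of all eligible genes), 27 had a peak in 1 to 6 libraries and 32 were open. The share was highest for photoreceptor genes, with 10 of 12, and lowest for neuron and glia genes, with 9 of 20. All 13 housekeeping genes and all 13 stem and progenitor genes were open, Kit, Cd34, Gata2, Runx1, Tal1, Lmo2 and Meis1 among them. These lists were drawn up with earlier results of the libraries known.

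Of 20 liver genes 13 were closed, F2, Tdo2, Apoh and Ahsg were open in all 7 libraries, and Hamp, Hp and Apoa1 had a peak in some. The nearest peak to a start of Alb was at 38002 bp in the library where it was closest, 38062 bp in the median library and 38076 bp in the farthest one. That peak was an OCR of all 7 libraries at chr5:90500702-90501101, with a mean fold enrichment of 8.12 ± 2.08 (SD, n = 7). Fga and Fgg, subunits of fibrinogen, shared 1 nearest OCR with a fold enrichment of 10.9 ± 1.81, which lay 23438 bp from Fga and 5086 bp from Fgg. Serpina1a, the protease inhibitor alpha-1-antitrypsin, was 131725 bp from any peak. Apoa2, an apolipoprotein, was 1461 bp from the strong promoter OCR of a neighbouring gene, at 235 ± 46.8. Ttr, the carrier of thyroxine, was 4319 bp from a peak that only 1 library had, and 24921 bp from the nearest peak in the median library. The distance was nearly the same in each library for Alb, and differed between libraries for Ttr.

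Of 25 striated muscle genes 15 were closed, 4 had a peak in 1 to 6 libraries and 6 were open. The open ones were Tnni1, Tnni2, Tnni3, Tnnt1, Ckm and Mylpf. The fast myosin heavy chains Myh1, Myh2 and Myh4 lay 57923 to 109772 bp from any peak, and the cardiac chain Myh6 lay 4701 bp from the nearest. The 3 factors Myod1, Myf5 and Myog, which direct cells into the muscle lineage, were closed, and the nearest peak of Myf5 was at 12299 bp in its closest library and 96183 bp in the median one. Acta1 had its nearest OCR at 2991 bp, on the far side of its gene, in all 7 libraries at 14.6 ± 3.02. Tnnt2, the cardiac troponin T, had 3 OCRs of all 7 libraries within its gene body and none at its starts.

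Among neuron and glia genes, Syt1 had its nearest peak at 89180 bp in the closest library and 97132 bp in the median one. Gad1 and Gad2, which make the transmitter GABA, were closed at 2172 and 11481 bp, whereas Snap25, Grin1, Camk2a, Camk2b, Rbfox3 and Mbp were open in all 7 libraries. Of 17 pancreas genes 12 were closed, 4 had a peak in 1 to 6 libraries, and Cela1 was open in all 7. The peptide hormone genes Ins1 and Ins2 lay 6711 and 3459 bp from an OCR of all 7 libraries. Pdx1, a factor of pancreas development, lay 22114 bp from an OCR with a fold enrichment of 23.6 ± 5.25. Of 17 germ line genes 10 were closed. Ddx4 lay 7566 bp from the promoter OCR of another gene, which stood at 82.7 ± 15.1. Pou5f1 and Stra8 of this list were open in all 7 libraries.

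The remaining lists held genes of eye, kidney, lung, gut, fat and pituitary. Closed were 10 of 12 photoreceptor, 5 of 10 kidney and 5 of 8 lung genes. The same held for 7 of 10 intestine, 8 of 11 fat and fibroblast and 5 of 8 pituitary genes. Open in all 7 libraries were Sag, Gnat1, Slc34a1, Foxj1, Ager, Lct, Apob, Plin1, Col1a1 and Gh. Rbp3, a retinoid carrier of the retina, lay 14540 bp from a peak in its closest library and 126343 bp in the median one. Umod lay 36325 bp from a peak in the closest library and 194203 bp in the farthest. In the gut list, Sis, the sucrase of the brush border, lay 78372 bp from any peak, and Cdx1, a factor of intestinal epithelium, lay 1856 bp from an OCR at 31.3 ± 7.05. Lep, the hormone leptin of fat cells, was 35594 bp from an OCR at 38.0 ± 9.28. Prl, the hormone prolactin, was 88962 bp from a peak in the closest library and 489366 bp in the farthest. For Umod and Prl the nearest peak thus differed between libraries, and for Sis, with 78445 bp in the farthest library, it hardly did.

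Lists of mature blood cells were counted by lineage, to be read against the 28.0% closed among all eligible genes. Of 15 T and NK cell genes 11 were closed, among them the co-receptors Cd4, Cd8a and Cd8b1, the cytokine Ifng and the granzymes Gzma and Gzmb. Cd3d counted as open in all 7 libraries while its neighbours Cd3e and Cd3g, which code for parts of the same receptor, were closed at 2879 and 5019 bp. The 5′ end of Cd3d, at chr9:44981786, lies beside that of Cd3g, at chr9:44980431, and had no peak within 1 kb. The peak that made Cd3d open lay at another of its starts. Of 12 B cell genes 6 were closed, among them Cd79a, Ms4a1, Pax5, Ebf1 and Blk, whereas Vpreb1, Igll1, Rag1 and Rag2 were open. Cd79a lay 3632 bp from the promoter OCR of another gene, at 143 ± 35.7. Of 16 myeloid genes 10 were closed. The early granule genes Mpo, Elane and Prtn3 were open, but Ctsg, the cathepsin G of the same granules, was closed at 2430 bp. Ltf, Camp, Ngp, S100a8, S100a9 and Ly6g, genes of later neutrophils, were closed too. Of the paired lysozyme genes Lyz2 was open in 7 libraries and Lyz1 was closed at 3200 bp.

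Of 11 erythroid and megakaryocyte genes 2 were closed, the adult globin genes Hbb-bs and Hba-a1. This was 18.2%, beside 28.0% of all eligible genes, and 11 genes are too few to set the list apart from that share. Klf1, Epor, Pf4 and Itga2b were open in all 7 libraries. Repeated sequence was measured as the share of 50-base words within 1 kb of the gene's own 5′ end that occur once in the genome, called single words here. Other starts of a gene were not measured. In Hba-a1, of which the mouse has a near-identical copy, 30.9% of these words occur once in the genome, and in Hbb-bs 66.0% do. This share was over 90% in 86.4% of all closed genes. How the study treated reads with several placements is not given in the sources used here, and the part of repeated sequence in these calls was not tested.

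The same measure was taken for the closed set as a whole. Under 50% of the words were single in 209 closed genes (4.30%) and in 54 open genes (0.475%). Genes with at most 10% single words were closed in 91.8% of 97 cases, and genes with over 90% single words in 26.1% of 16122 cases. Among the 17069 genes with over 50% single words, 4650 were closed (27.2%).

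The closed genes were spread unevenly over the chromosomes. The share was lowest on chromosome 17, at 18.3% (162 of 883 genes, and 27.4% with no symbol left out), and on chromosome 11, at 20.4%. It was highest on chromosome 18, at 36.7% (176 of 480 genes), followed by chromosome 6 at 36.3% and chromosome 3 at 35.2%, and the median chromosome was at 28.4%. This order holds for the eligible symbols, since with no symbol left out chromosome 18 was at 37.8% against 36.5% of all genes, and the chromosomes were not ranked that way. Taken with 1 library at a time, the mean share of genes without a peak was 31.5% ± 1.32 (SD, n = 7), with 5084 such genes in replicate 1 and 5731 in replicate 6. Merged OCRs of the 7 lists, counted over the whole chromosome, stood at 97.6 per Mb on chromosome 17 and 83.1 on chromosome 11, against 44.3 on chromosome 18, 39.7 on chromosome 3 and 57.8 over all autosomes.

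**Figure D2:**
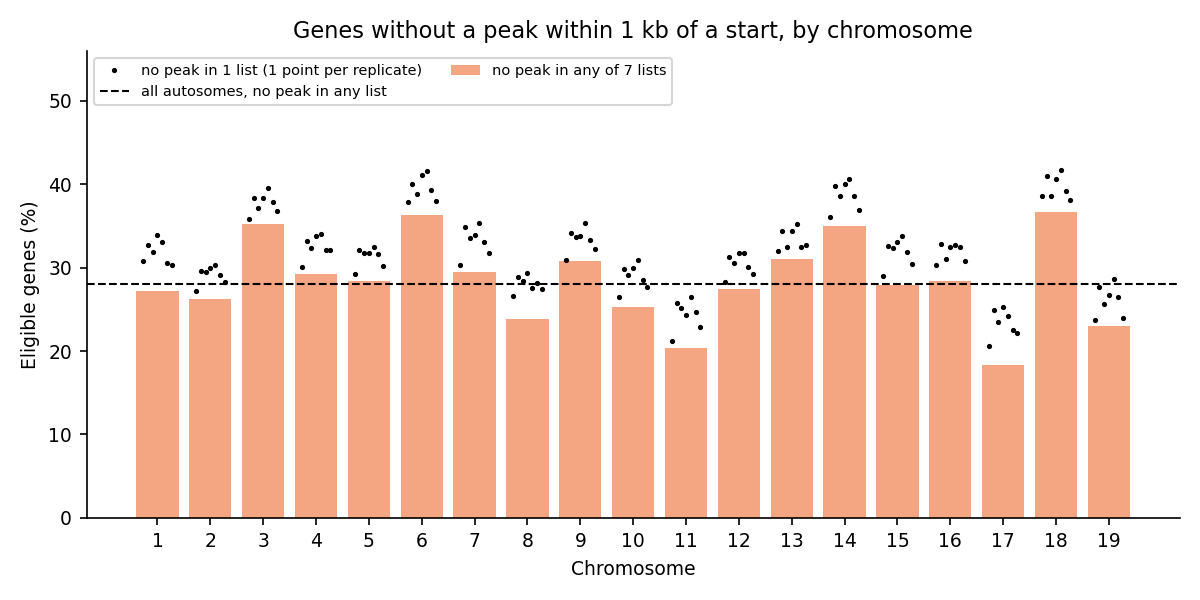
Bars give the percentage of eligible genes without a peak within 1 kb of a start in any of the 7 lists, points give the percentage without a peak in each single list, and the dashed line is the value over all autosomes (28.0%). Chromosomes 17 and 11 have the lowest bars (18.3% and 20.4%) and chromosomes 18 and 6 the highest (36.7% and 36.3%).

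Closed genes lay next to each other in runs of consecutive eligible genes. Of the 4862 closed genes 1458 (30.0%) had no closed neighbour, 2030 were in runs of 2 to 4, 808 in runs of 5 to 9, and 566 in 36 runs of at least 10. Runs of at least 5 held 28.3% of the closed genes, whereas 63.9% of the open genes, which are more numerous, lay in open runs of that length. With no symbol left out, 48.5% of the closed genes lay in such runs. The median distance to the nearest peak was 4693 bp for single genes and 28895 bp (rounded) in runs of at least 10, which follows in part from how runs are made, since a single gene has neighbours with a promoter peak. The ratio of observed over expected CpG within 500 bp of the 5′ end, at a median of 0.411 in single genes, was 0.134 in the longest runs. An OCR of any library lay in the gene body of 60.5% of single genes and of 14.0% of those in runs of at least 10, and their median lengths were 19.0 and 6.14 kb. Over all closed genes this share was 7.67% under 5 kb, 32.2% from 5 to 20 kb and 59.9% from 20 to 50 kb, and the part of length in the difference between runs was not tested. These runs also had the lowest share of genes with over 90% single words, 59.9% against 93.8% in single genes.

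The longest run held 48 genes over 1337 kb at chr3:92134997-93471980, the epidermal differentiation complex. It held the 21 Lce and 15 Sprr genes together with Ivl (involucrin), Flg (filaggrin), Hrnr and Tchh, other proteins of the cornified layer and hair. Only 23 merged OCRs lay in this span, 4 of them in all 7 libraries, or 17.2 per Mb against 57.8 over all autosomes. Its genes lay between 1.00 kb (Lce1g) and 106 kb (Sprr2a3) from the nearest peak, with a median of 24.5 kb. The second run, 34 genes at chr8:21025545-21974041, was made of the 22 Defa genes, 9 Defb genes and 3 others, and 20 of its genes had under 50% single words. The third, 30 genes at chr7:31290508-34133268, held 29 Scgb genes and Wtip, with 3 OCRs in 2843 kb, and 16 of its genes had under 50% single words. The fourth, 28 genes at chr5:86889767-88527891, held 10 Ugt2 genes, 3 Sult1 genes, the 5 caseins, and the enamel genes Amtn, Ambn and Enam, and ended with Jchain. None of its genes had under 50% single words, and its median distance to a peak was 48.9 kb. The fifth, 24 genes at chr4:59905126-62231047, held the 22 Mup genes between Slc46a2 and Zfp37, and 17 of its genes had under 50% single words. Only 3 genes of the longest run had under 50% single words, Sprr2a3 with 16.8% among them. Among the next runs, named here after their content was seen, was one of 16 genes at chr15:74732247-75599481 with Ly6a, the Sca-1 antigen of stem cells, Ly6c1, Ly6c2, Ly6e and Ly6g.

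The distance from a closed gene to the nearest peak of any list had a median of 8945 bp (rounded), with quartiles of 3414 and 25826 bp. With no symbol left out the median was 13972 bp (rounded), and among genes without a peak within 3 kb it was 13824 bp. It was at most 2 kb in 602 genes (12.4%), at most 10 kb in 2558 (52.6%) and beyond 100 kb in 302 (6.21%). The 10 farthest genes were all Scgb genes of the third run, from Scgb1b10 at 892 kb to Scgb1b29 at 1232 kb. In these 10 between 0 and 46.5% of the 50-base words were single. With 1 list at a time, the median distance was between 10486 bp (rounded, replicate 8) and 16690 bp (replicate 6).

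Around the limit of 1 kb the set had no gap. Just inside were Lce1g and Vstm2a at 1001 bp, Magel2 at 1004 bp, and Ildr1 and Scd3 at 1005 bp. Just outside, and so not closed, were Mustn1 at 1000 bp and Creb3l4, Entpd8, Ppm1n and Rpl9-ps6 at 997 bp, each with a peak in 1 library. Closed genes with the nearest peak at 1001 to 1100 bp numbered 72, and genes with it at 901 to 1000 bp numbered 95. Genes with a promoter peak in 1 to 6 libraries had low peaks. In 1 library only there were 286, with a mean over libraries of the median fold enrichment of 3.13 ± 0.483, and in 6 libraries 190, with 4.20 ± 0.532. In the open genes it was 81.1 ± 14.5. Replicate 1 alone supplied 155 of the 286 single ones, and without it 5017 genes were closed.

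The nearest OCR lay outside genes' starts and outside the closed gene itself in 2822 cases (58.0%), in the gene's own body in 1496 (30.8%) and at the start of another gene in 544 (11.2%). In all 7 libraries it was found for 1891 closed genes (38.9%), and in a single library for 852. Where it was the start of another gene, 57.0% were OCRs of all 7 libraries, against 36.4% in the own gene body.

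Peaks in gene bodies were not used to choose the genes, and so could be compared between closed and open genes. Only peaks over 1 kb from every annotated start were counted, in 4710 closed genes with 317 Mb and 11152 open genes with 491 Mb of such sequence. Per library, 38.0% ± 4.15 of closed genes (SD, n = 7) had such a peak, with 32.7% in the lowest, 39.2% in the median and 42.8% in the highest library. In open genes it was 69.8% ± 3.81, from 64.7% to 75.9%, so that the groups did not overlap. The difference was -31.8 ± 2.67 percentage points and negative in 7 of 7 libraries. The exact two-sided sign-flip permutation test over the libraries gave p = 0.0156, the smallest that 7 libraries allow, and 0.0234 with Benjamini-Hochberg adjustment over 3 measures.

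Per Mb of gene body, closed genes had 15.3 ± 2.98 peaks and open genes 81.1 ± 15.8, which is 5.29-fold more in open genes (log2 ratio of closed over open -2.40 ± 0.14, negative in 7 of 7 libraries, exact p = 0.0156, adjusted 0.0234). The ranges, 11.6 to 19.0 and 61.4 to 108, did not overlap. The median log10 fold enrichment was 0.732 ± 0.0507 in closed and 0.748 ± 0.0563 in open genes, a difference of -0.0154 ± 0.0135 that was negative in 6 of 7 libraries (exact p = 0.0312, adjusted 0.0312). The exception was replicate 1, and leaving out any 1 of the other 6 libraries ended this call (exact p = 0.0625, with differences of -0.0171 to -0.0116 over all libraries left out in turn). The size of this difference depended on the peaks and genes used, with -0.0451 when equal numbers of peaks were taken from each list, -0.0390 for peaks at least 3 kb from starts, -0.0371 for a −log10 q of at least 5 (exact p = 0.0156 in these 3) and -0.0248 in genes of at least 20 kb. Within the libraries whose names begin with VD the 3 differences were -31.2 points, -2.37 and -0.0201, and within those with EtOH -32.2 points, -2.43 and -0.0118. Choosing the genes from 6 libraries and counting body peaks in the one left out gave -31.6 points and a log2 ratio of -2.39. The genes so chosen were nearly the same in number, 4712 to 4854 closed against 4710, and 11153 to 11237 open against 11152. This choice could therefore change little.

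**Figure D3:**
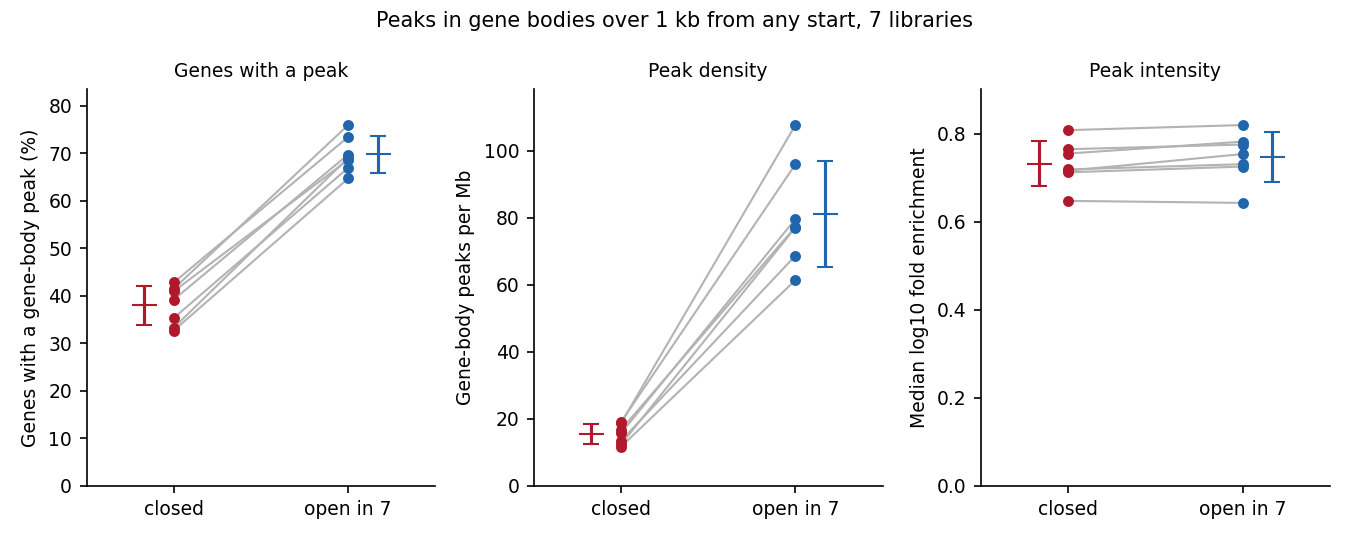
Each point is 1 library and lines join the same library, for genes with a gene-body peak (%), peaks per Mb and the median log10 fold enrichment, with mean ± SD beside the points. Closed genes lie below open genes in all 7 libraries in the first 2 panels (38.0% against 69.8%, and 15.3 against 81.1 per Mb), and in 6 of 7 in the third (0.732 against 0.748).

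The direction was the same in each of 6 classes of gene length. Among merged OCRs found in all 7 libraries, 28.4% of closed genes had at least 1 in the body and 58.1% of open genes. Under 5 kb it was 3.02% of 926 closed and 9.20% of 1011 open genes. Between 20 and 50 kb it was 37.2% of 957 against 68.4% of 3289, and from 200 kb upwards 59.6% of 401 against 96.8% of 439. With OCRs of any library, 2526 closed genes (53.6%) had none in the body, and at least 1 was found in 46.4% of closed, 77.1% of open and 67.8% of all eligible genes with such sequence. A closed gene can overlap an open one, which was the case for 269 closed genes (5.53%), and their OCRs cannot be assigned to 1 of the overlapping genes.

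**Figure D4:**
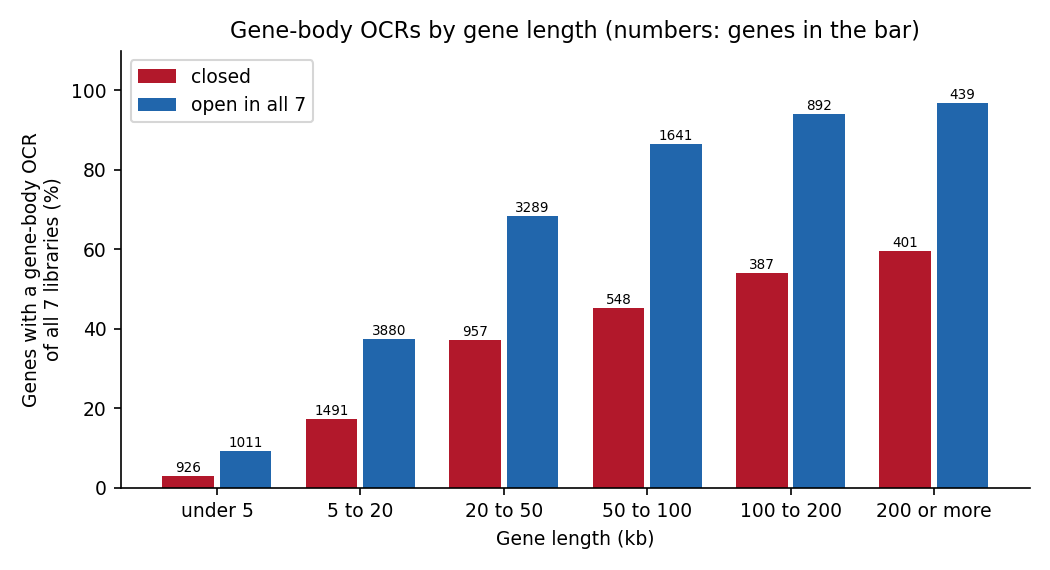
Bars give the percentage of closed (red) and open (blue) genes with at least 1 gene-body OCR found in all 7 libraries, by gene length in kb, with the number of genes above each bar. The closed bar is lower in each class, from 3.02% against 9.20% under 5 kb to 59.6% against 96.8% from 200 kb.

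Some closed genes held many OCRs in the body. The 10 with the most OCRs of all 7 libraries had 13 to 34 of them. Megf11, which codes for a transmembrane protein with EGF repeats, had 34 in 324 kb at chr9:64385626-64709205, and its nearest start was 1606 bp from a peak. The strongest of the 34, at chr9:64532739-64534877, lay 148 kb from the 5′ end and had a fold enrichment of 141 in replicate 1, 116 in 2, 108 in 4, 160 in 5, 97.6 in 6, 105 in 7 and 135 in 8, a mean of 123 ± 22.6. It was high in every library and stands above the 81.1 that the promoters of open genes had at the median. Nrg3, a ligand of the receptor ERBB4 in neurons, had 27 in 1104 kb, with the strongest at 96.8 ± 18.5, 926 kb from the 5′ end. Its starts were 35859 bp from any peak.

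Hecw2, an ubiquitin ligase, and Rapgef4, a cAMP-regulated exchange factor, had 17 each, with the strongest at 67.8 ± 12.8 and 59.3 ± 13.0. Csmd1, a large membrane protein of neurons, had 15 in 1643 kb, the strongest at 113 ± 28.3 and between 72.0 (replicate 6) and 150 (replicate 4). Myo16, a myosin of brain, had 14, and Limch1, an actin regulator, had 13, the strongest of which lay 11.2 kb from the 5′ end. The other 3 overlap an open gene. Pakap had 17 OCRs, and Cx3cr1, the fractalkine receptor of monocytes and microglia, had 13 over an annotated length of 168 kb. Atp5o had 19 over 243 kb, in a second gene model of that symbol (ENSMUSG00000116933) beside the one at the usual promoter, which was open in all 7 libraries.

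Closed genes differed from open ones in the sequence around the 5′ end, which the rule did not use. The median ratio of observed over expected CpG was 0.329 in closed genes, 0.358 in genes with a peak in 1 to 6 libraries and 0.725 in open genes. Low CpG content (a ratio under 0.48) was found in 65.1% of closed and 20.4% of open genes, and high content (over 0.75 with a GC content over 55%) in 11.2% and 39.7%. By classes of this ratio, 57.1% of the genes under 0.25 were closed, 43.0% of those from 0.25 to 0.5, 20.2% from 0.5 to 0.75, and 10.0% from 0.75 to 1. TATAAA between 40 and 15 bases before the 5′ end on the strand of the gene stood in 4.40% of closed and 0.940% of open genes. Genes with 1 annotated start were 34.4% of the closed and 8.88% of the open set, and a gene with more starts has more windows in which a peak can lie. The median gene was 17.5 kb long in the closed and 23.3 kb in the open set. These are values over genes, which are not replicates, and no test was made.

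**Figure D5:**
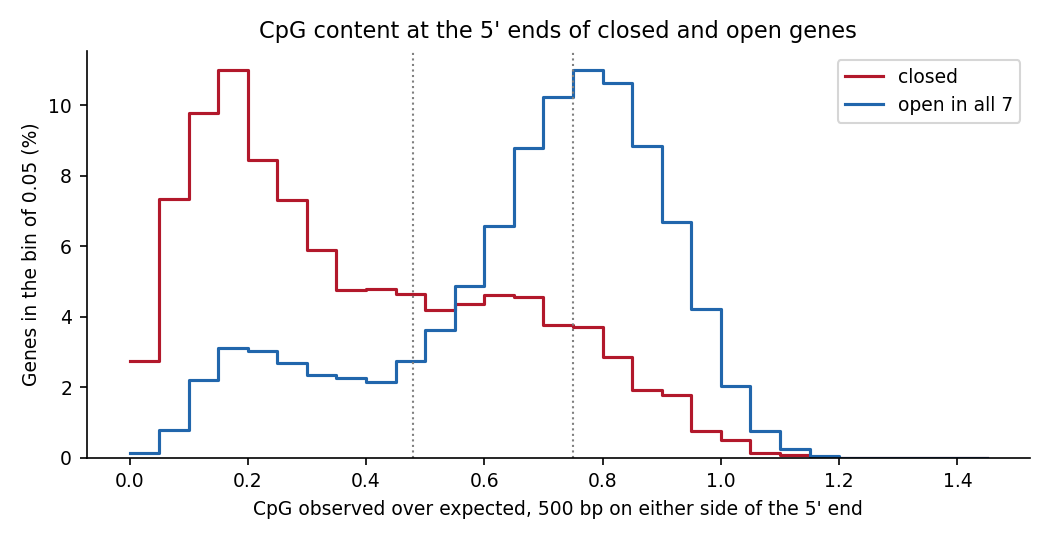
Lines give the percentage of closed (red) and open (blue) genes by the ratio of observed over expected CpG within 500 bp of the 5′ end, in bins of 0.05, with dotted lines at 0.48 and 0.75. The closed genes centre at a median of 0.329 and the open ones at 0.725, with a wide overlap.

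Of 5165 eligible genes with high CpG content at the 5′ end, 543 were closed, the less usual pair. Among all eligible genes 28.0% were closed. Of the 543, the 3 with the most CG within 500 bp of the 5′ end were Enah with 167, Pde8a with 162 and Gpr27 with 157, at 4712, 2526 and 7458 bp from the nearest peak. Of others, chosen like these after their values were seen, Reln, the reelin of neurons, had 149 at 23602 bp, Ebf3, a transcription factor, had 138 at 19678 bp, and Wnt4, a signalling ligand, had 137 at 2770 bp. In each of these 6 genes every 50-base word within 1 kb of the 5′ end occurred once in the genome, and other starts were not measured.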

How the data were processed

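HPC7 cells were measured by ATAC-seq, and 7 narrowPeak lists were used. Before deposition the authors ran Cutadapt for trimming, BWA for alignment to mm10 and MACS2 for peaks, library by library, and versions are not given in the sources used here. The deposited columns hold fold enrichment, which is a ratio of reads to background, a −log10 p, a −log10 q, a score and a summit. No read depth was used, so that precision is the SD over the 7 libraries. No normalization between lists was added.

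A gene was closed if no peak of any list came within 1000 bp of any of its GENCODE M21 transcript starts, and open if each of the 7 lists had such a peak. Overlapping peaks were merged to OCRs. Gene-body peaks lay over 1000 bp from all annotated starts. Closed and open genes were compared with the exact two-sided sign-flip permutation test over 7 libraries, with Benjamini-Hochberg adjustment over 3 measures and a threshold of 0.05. The p-values measure the spread between culture batches of 1 line. Words of 50 bases were counted on both strands of the GRCm38.p6 genome. RefSeq promoter entries matched 13464 of 17352 genes by symbol, and 500 of 500 entries checked equalled the genome sequence.

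The members, families and gene lists were chosen with earlier results of these data known, and the patterns of some families (interferons, ribosomal proteins, apolipoproteins, crystallins, chemokines, caseins) were corrected after their symbols were seen. Named are the 10 farthest genes, the 10 with the most gene-body OCRs of all 7 lists, the 5 longest runs, the 5 genes on either side of the limit, the gene lists, and family exceptions of at most 5. Of the gene lists, whose members the rule would all name, and of the family exceptions, only examples chosen after their values were seen are named, and the rest are in the counts. Further genes are marked where they were chosen that way. Scripts ran on Python 3.11.15 with matplotlib 3.10.9, numba 0.67.0, scipy 1.17.1, pandas 2.3.3 and numpy 2.4.6. Distances were tested on simulated data, with bedtools 2.31.1 as the reference. Alternatives were other distances, starts, thresholds, equal list lengths, symbols, name prefixes, unique sequence, and each library left out.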

Additional observations from a re-analysis of the deposited data

Results flagged for a closer look

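Replicate 1 stood apart from the other 6 libraries in 2 of 10 values compared between libraries, by the gap to the next library over the range of all 7. It alone had a promoter peak in 155 genes, against 54 in the next library, and its lowest listed fold enrichment was 1.68, against 2.13 in the next. About 1 in 20 such comparisons is marked when nothing is unusual. Without replicate 1 the closed genes numbered 5017 in place of 4862.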

How the results depend on the processing

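The closed genes numbered 4862 and between 3798 (peaks within 3 kb) and 5812 (the gene's own 5′ end only) under the other distances, starts, thresholds and list choices, with 4864 to 5017 when each library was left out. Only keeping all symbols moved the count by over 1.5 times, to 7598, and it moved the share in runs of at least 5 to 48.5% and the median distance to 13972 bp (rounded), which was 13824 bp with peaks within 3 kb. With the gene's own 5′ end only, 2 of the 13 stem and progenitor genes were closed, and with summits within 1 kb, 1. The share on chromosome 17 was between 13.5% (3 kb) and 27.4% (all symbols), and that on chromosome 18 between 30.2% and 43.5%. Of the gene-body measures, the difference in genes with a peak stayed between -33.0 and -28.0 points and the log2 ratio between -2.67 and -2.27 under the other choices. Leaving out 1 library gave -32.4 to -30.7 points and log2 ratios of -2.44 to -2.33, each with the exact p of 0.0312 that 6 libraries allow. The difference in median log10 fold enrichment was -0.0171 to -0.0116 with 1 library left out, where the exact p rose to 0.0625 except without replicate 1, and was -0.0451 with equal list lengths, -0.0390 with peaks at least 3 kb from starts, -0.0371 with a −log10 q of at least 5 and -0.0248 in genes of at least 20 kb. Read depth was not used here, and its part in the counts was not tested. Samples could not be paired between groups because all 7 libraries belong to 1 group, so that replicate numbers pair no samples of different groups. The gene-body tests are paired by library, since they compare closed and open genes within each library.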

Other observations

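Of the genes left out by symbol, 16 begin with Gm but are not numbered gene models, and 3 of those were closed. Keeping them gave 4865 closed genes of 17368. Lyz1 and Lyz2 had 89.9% and 92.6% single 50-base words around the 5′ end, against 30.9% in Hba-a1.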
